A study of Mus musculus with 6 samples.

Results

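Regulators of G protein signaling are the proteins that switch off heterotrimeric G proteins, and 9 of their genes were followed here in mouse hematopoietic stem and progenitor cells (HSPCs) with and without the miRNA cluster MIRC11. They were Rgs1, Rgs2, Rgs3, Rgs16 and Rgs18 of the R4 subfamily, Rgs10, Rgs12 and Rgs14 of the R12 subfamily, and Rgs19 of the RZ subfamily. They were taken by symbol, and are 9 of the 21 Rgs genes among the 23997 gene symbols of the table. The choice was made with the values of this same comparison known, so the values of these 9 genes, and the counts of calls set beside those of all genes, are a description and no evidence of a change.

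The RNA came from Lin-Sca-1+c-Kit+ (LSK) bone marrow cells, the sorted population that holds stem cells and multipotent progenitors. Polyadenylated RNA, selected from total RNA, was sequenced from 3 Mirc11-/- preparations and from 3 wildtype preparations. Mirc11-/- mice lack the Mirc11 cluster, from which miR-23a, miR-27a and miR-24 (its Mir24-2 copy) are processed. The sources used here name no cell type to which the deletion is restricted. All mice were on the C57BL/6 background of the labels (C57BL/6J in the methods), were 6 to 8 weeks old and were untreated (normal hematopoiesis per the labels), and each preparation pooled the sorted cells of 3 to 4 mice, so an n of 3 counts pools. All 6 libraries carry 1 batch label. The methods give the Lin-Sca-1+c-Kit+ gate, while a figure legend of the study names Lin-Sca1-cKit+ cells.

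A heterotrimeric G protein is active while its alpha subunit holds GTP, after a G protein-coupled receptor has met its ligand. RGS proteins bind the active alpha subunit through their RGS domain and speed up its GTP hydrolysis, so the signal ends sooner. In blood cells the receptors in question include those for chemokines, sphingosine-1-phosphate, prostaglandins and nucleotides, which guide homing and retention in the bone marrow, and R4 proteins are known for limiting chemokine-driven migration of lymphocytes.

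The deleted miRNAs are shown because they define the comparison, and their target matches are counted in the Rgs transcripts further on. The mature sequences are from RefSeq (GRCm38.p6, chromosome 8, plus strand), at chr8:84208563-84208583 for miR-23a-3p, chr8:84208727-84208747 for miR-27a-3p and chr8:84208875-84208896 for miR-24-3p. Capitals mark the seed, bases 2 to 8 from the 5′ end.
mmu-miR-23a-3p: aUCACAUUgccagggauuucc
mmu-miR-27a-3p: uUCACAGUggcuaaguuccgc
mmu-miR-24-3p: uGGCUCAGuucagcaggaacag
The 3 seeds differ from each other, so no 2 of these miRNAs fall in 1 seed group. miR-24-3p is also made from a locus outside MIRC11, and miR-23b and miR-27b share the seeds of miR-23a and miR-27a, so the deletion does not remove every miRNA with these seeds.

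Of the 9 Rgs genes, 4 had a match to at least 1 of the 3 seeds in their longest annotated 3′ UTR (44.4%), against 39.8% of the 13553 tested genes with an annotated 3′ UTR. The match is the DNA complement of the seed: AATGTGA for miR-23a-3p, ACTGTGA for miR-27a-3p and CTGAGCC for miR-24-3p, read on the transcript strand only. Matches to the miR-23a seed stood in 16.1% of these genes, to the miR-27a seed in 16.8% and to the miR-24 seed in 18.8%. Each of the 3 was matched in 2 of the 9 Rgs genes. The matches in Rgs1, Rgs2, Rgs3 and Rgs10 are shown with their flanks, 5′ to 3′ on the transcript strand, with the match in capitals (GENCODE M21 annotation on GRCm38).
Rgs1, miR-23a-3p match (chr1:144243981-144244008, minus strand): tgtaatattcacaacAATGTGAtgaaaa
Rgs1, miR-27a-3p match (chr1:144244991-144245018, minus strand): tctggcaacacagaaACTGTGAataatg
Rgs2, miR-27a-3p match (chr1:143999949-143999976, minus strand): cattgaaacagtgatACTGTGAtggaaa
Rgs3, miR-23a-3p match (chr4:62659309-62659336, plus strand): cttgcttcataaatcAATGTGAcaatta
Rgs3, miR-24-3p match (chr4:62658716-62658743, plus strand): aactaccagagccacCTGAGCCcctaaa
Rgs10, miR-24-3p match (chr7:128373882-128373895, minus strand): gCTGAGCCcttcac
The Rgs10 match begins at position 2 of a 3′ UTR of 275 bases, so fewer bases are shown. The 3′ UTRs of Rgs12, Rgs14, Rgs16, Rgs18 and Rgs19 held none of the 3 matches. A match is a string of letters and was not tested as a binding site.

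The libraries held 15029379 to 17051541 reads in genes, and values are normalized read counts, in which each library's reads were scaled by 1 constant and a read was worth 0.946 to 1.04. The 3 MIRC11 precursor genes had 0 reads in each Mirc11-/- library. In wildtype libraries Mir23a had 16 to 19 reads, Mir27a 10 to 28 and Mir24-2 8 to 44, so every library matched its genotype label. The first principal component of all genes tested held 31.35% of the variance. On it, Mirc11-/- libraries 1 and 2 stood at −54.6 and −25.5, and library 3, at 19.5, lay among the wildtype libraries at 13.5 to 26.2. On the second component Mirc11-/- library 3, at −35.8, lay beside Mirc11-/- library 2, at −32.5. Both were below the wildtype libraries at −2.15 to 27.0, and Mirc11-/- library 1 stood at 18.0. Kit had 6644 to 9950 normalized counts in Mirc11-/- and 8577 to 9416 in wildtype libraries, Ly6a (Sca-1) had 374 to 534 in Mirc11-/- and 444 to 683 in wildtype libraries, and all 12 LSK markers of the list were detected. RNA of Itgam, which encodes the lineage antigen CD11b of the gate, was present at 1263 to 1398 normalized counts in Mirc11-/- and 1574 to 1653 in wildtype libraries. Of 3 tested genes of the gate's lineage antigens, 2 had positive log2 fold changes (Mirc11-/- minus wildtype) and 1, Itgam, a negative one. Their median was 0.83, for 3 of 5 listed antigen genes. By library, on the log2 scale relative to the wildtype mean, their median was −0.33, 1.56 and −0.18 in Mirc11-/- libraries 1 to 3. In wildtype libraries 1 to 3 it was 0.32, −0.04 and −0.25, so only Mirc11-/- library 2 stood above the wildtype libraries.

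Rgs2 was the only one of the 9 genes whose 3 Mirc11-/- values all lay below the 3 wildtype values. The whole set did not move as a group: 2 genes, Rgs1 and Rgs2, had log2 fold changes (Mirc11-/- minus wildtype) below −0.5, and the other 7 lay within 0.25 of 0 on the log2 scale. Of the 9, 6 had negative and 3 positive log2 fold changes, with a median of −0.05, against 0.00 over all 15662 genes tested. Rgs2 and Rgs1 were also the 2 most abundant of the 9 in counts, so the summed normalized count of the 9 genes was 9634, 10749 and 12813 in Mirc11-/- libraries, against 12953, 15680 and 15226 in wildtype libraries. Without Rgs1 and Rgs2 the other 7 genes summed to 5428 ± 262 in Mirc11-/- and 5495 ± 75.6 in wildtype libraries (SD, n = 3 each).

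**Figure D1:**
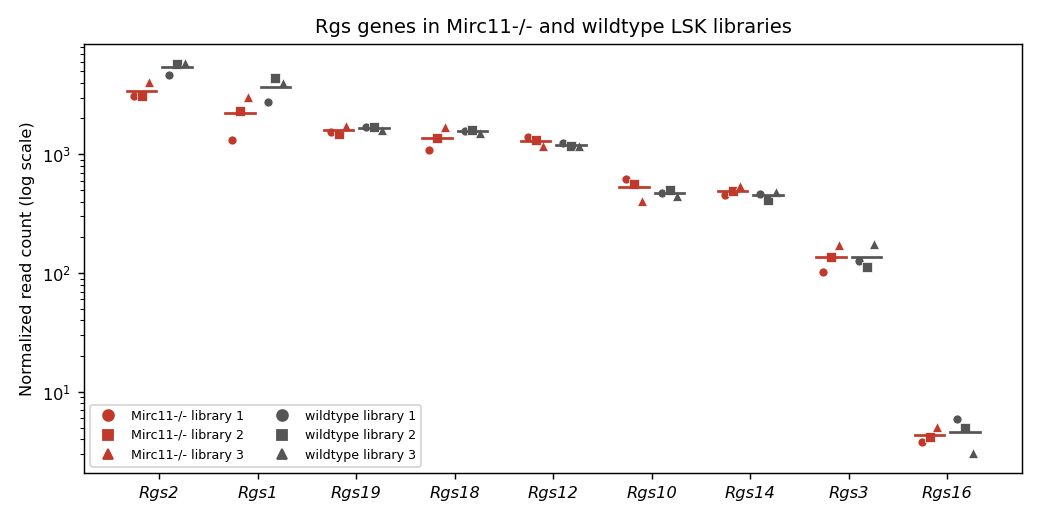
Normalized read counts (vertical log axis) of the 9 Rgs genes in each library, with Mirc11-/- in red left of wildtype in gray, 1 symbol per library and a bar at the group mean. Rgs2 is the gene whose red and gray points are fully apart, at 3095 to 4042 in Mirc11-/- against 4677 to 5805 in wildtype libraries, while Rgs16 lies near 4 to 5 normalized counts in both genotypes.

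None of the 9 genes passed an adjusted p of 0.05 in limma's fit over all genes, where 5 genes (0.0319%) did, 1 higher and 4 lower in Mirc11-/- cells. Every Mirc11-/- library lay below every wildtype library for 1 of the 9 genes, against 6.53% of all genes tested, and above for 0 of the 9, against 6.42%. An unadjusted p under 0.05 was reached by 2 of the 9, against 8.24% of all genes. A log2 fold change of −0.5 or less was found in 2 of the 9, against 7.13%. Since the 9 were chosen from this contrast, nothing is read from these counts. In bulk RNA, fewer cells that express a gene and less of its RNA per cell cannot be told apart, and this holds for every value given here.

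The R4 genes hold little beyond an RGS domain and act on the Gi and Gq alpha subunits. Rgs2, which acts mainly on Gq alpha subunits and is known from the control of blood pressure, had 3110, 3095 and 4042 normalized counts in Mirc11-/- libraries, against 4677, 5793 and 5805 in wildtype libraries. The highest Mirc11-/- value, that of library 3, was below the lowest wildtype value, that of library 1. Means were 3415 ± 543 in Mirc11-/- and 5425 ± 648 in wildtype cells (SD, n = 3 each), a ratio of 0.630 and a log2 fold change of −0.67 (SE 0.13).

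Rgs1, which dampens the response of lymphocytes to chemokines and is quickly induced in activated cells, had 1320, 2293 and 3055 normalized counts in Mirc11-/- libraries, against 2729, 4359 and 4013 in wildtype libraries. The groups overlapped, because Mirc11-/- library 3 lay above wildtype library 1, and Mirc11-/- library 1 was lowest of all 6. The means of 2223 ± 869 in Mirc11-/- and 3700 ± 859 in wildtype cells gave a ratio of 0.601 and a log2 fold change of −0.79 (SE 0.29). The standard error was over 2 times that of Rgs2 on the log2 scale.

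Leaving out Mirc11-/- library 1 moved the log2 fold change of Rgs1 to −0.45, and leaving out Mirc11-/- library 3 moved it to −1.06. For Rgs2 the same omissions gave −0.61 and −0.80. Over 17 other settings of the fit, Rgs2 ran from −0.82 to −0.61 and Rgs1 from −1.06 to −0.45, without a change of sign. Rgs2 passed an adjusted p of 0.05 in 4 of the 17: without Mirc11-/- library 3, where 1.46% of genes were called lower, with the replicate number as a block (0.172%), in DESeq2 on the recovered reads (0.555%) and with array weights (17.9%). Rgs1 did so in 2 of these, without Mirc11-/- library 3 and with array weights. As both genes were picked from this contrast, these passes describe how the fit depends on its setting and support no difference. The array weights put 23.9 on Mirc11-/- library 2 and at most 1.83 on any other library, and their estimation stopped before it converged.

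Rgs18, abundant in megakaryocytes and platelets, where it restrains activation, had 1088, 1375 and 1679 normalized counts in Mirc11-/- libraries, against 1567, 1606 and 1514 in wildtype libraries. Mirc11-/- library 3 was the highest of all 6 and library 1 the lowest, so the Mirc11-/- values lay on both sides of the wildtype values. The log2 fold change was −0.20 (SE 0.14), with means of 1381 ± 296 in Mirc11-/- and 1562 ± 46.1 in wildtype cells. Without Mirc11-/- library 1 the log2 fold change was −0.04, and without Mirc11-/- library 3 it was −0.35. The coefficient of variation was 21.4% in Mirc11-/- and 2.95% in wildtype libraries.

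Rgs3, a longer R4 protein with several isoforms that acts on Gi and Gq alpha subunits, had 103, 136 and 173 normalized counts in Mirc11-/- libraries, against 125, 113 and 175 in wildtype libraries. The groups covered the same range, and the log2 fold change of −0.01 (SE 0.24) changed sign in 3 of 17 other settings. Rgs16, which is inducible in activated T cells and in fasting liver, was close to the limit of detection with 4, 4 and 5 reads in Mirc11-/- and 6, 5 and 3 reads in wildtype libraries. Its log2 fold change of −0.05 had a standard error of 0.46, so no difference was detectable at this depth.

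The R12 genes encode Rgs10, a small protein of little more than an RGS domain, and Rgs12 and Rgs14, which add Ras-binding domains and a GoLoco motif that holds inactive Gi alpha subunits. All 3 had positive log2 fold changes with overlapping groups. Rgs10, known for restraining inflammatory activation of microglia and macrophages, had 621, 565 and 407 normalized counts in Mirc11-/- libraries, against 468, 504 and 445 in wildtype libraries. Mirc11-/- libraries 1 and 2 lay above all wildtype libraries and library 3 below all of them. The log2 fold change was 0.15 (SE 0.16), or 0.33 without Mirc11-/- library 3 and 0.02 without Mirc11-/- library 1.

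Rgs12, a scaffold that also has a PDZ domain, had 1396, 1311 and 1171 normalized counts in Mirc11-/- libraries, against 1237, 1174 and 1174 in wildtype libraries. Libraries 1 and 2 of Mirc11-/- were again the highest and library 3 the lowest of all 6, with means of 1293 ± 113 in Mirc11-/- and 1195 ± 36.0 in wildtype cells. The log2 fold change was 0.11 (SE 0.09), or 0.05 without Mirc11-/- library 1 and 0.18 without library 3. Rgs14, best known for limiting synaptic plasticity in the hippocampus, had 452, 495 and 537 normalized counts in Mirc11-/- libraries, against 462, 416 and 482 in wildtype libraries. Here the order within Mirc11-/- was turned round, with library 3 highest, and the log2 fold change was 0.13 (SE 0.11), or 0.19 without library 1 and 0.06 without library 3.

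Rgs19, the RZ member known as GAIP, acts on Gi alpha subunits at membranes and vesicles. It had 1541, 1476 and 1744 normalized counts in Mirc11-/- libraries, against 1682, 1711 and 1614 in wildtype libraries, and the groups overlapped. The means of 1587 ± 140 in Mirc11-/- and 1669 ± 49.7 in wildtype cells (SD, n = 3 each) differed by a log2 fold change of −0.08 (SE 0.09). Set against this steadier gene within each library, the ratio of the Rgs2 to the Rgs19 count was 2.02, 2.10 and 2.32 in Mirc11-/- libraries, against 2.78, 3.39 and 3.60 in wildtype libraries, with no overlap. The ratio of Rgs2 to Rgs18 was 2.86, 2.25 and 2.41 in Mirc11-/- libraries, against 2.98, 3.61 and 3.83 in wildtype libraries, also without overlap. These ratios rest on the same Rgs2 values and are no separate evidence.

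**Figure D2:**
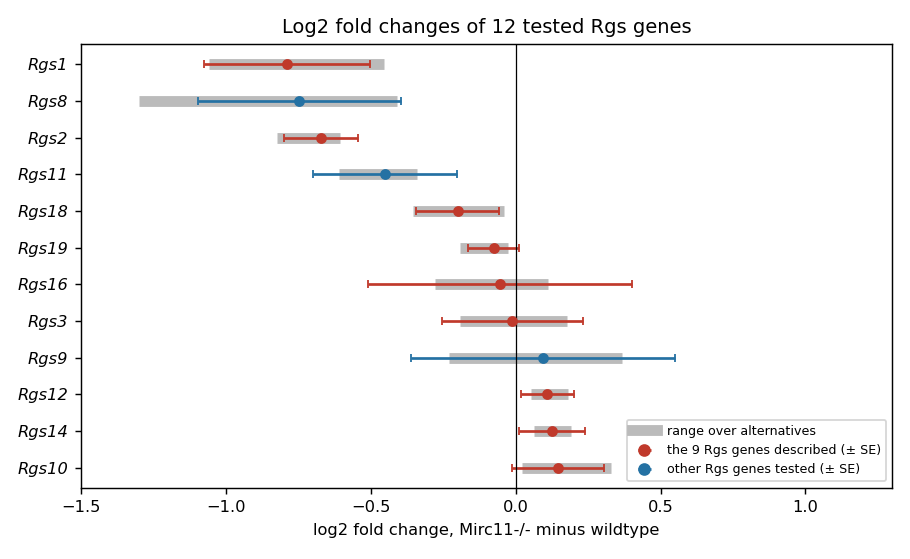
Log2 fold change, Mirc11-/- minus wildtype (horizontal axis), of the 12 Rgs genes tested, as points with standard errors. Red marks the 9 genes described and blue the other 3, over gray bars for the range in 17 other settings (16 for Rgs16). Rgs1 and Rgs2 lie at −0.79 and −0.67 with gray bars left of 0, and Rgs10, Rgs12 and Rgs14 lie at 0.11 to 0.15.

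Per kilobase of the longest coding transcript, the 9 genes spanned a wide range of levels. In Mirc11-/- cells Rgs2 (1131 ± 180 normalized counts per kilobase, SD, n = 3) and Rgs19 (1050 ± 92.6) were highest and lay within their spread of each other. Rgs18 (680 ± 146), Rgs10 (603 ± 127) and Rgs1 (579 ± 226) followed, and these 3 did not differ beyond their spread. Rgs12 (236 ± 20.7) and Rgs14 (210 ± 18.1) came next, again within about 1 SD of each other, with Rgs3 at 29.2 ± 7.45 and Rgs16 at 1.85 ± 0.274.
In wildtype cells the order on this scale was Rgs2 (1796 ± 214), Rgs19 (1105 ± 32.9), Rgs1 (963 ± 224), Rgs18 (769 ± 22.7), Rgs10 (537 ± 33.9), Rgs12 (218 ± 6.59), Rgs14 (192 ± 14.4), Rgs3 (29.4 ± 7.01) and Rgs16 (1.98 ± 0.626). Rgs1 lay within its spread of both Rgs19 and Rgs18 there. Rgs1 thus stood at place 5 of 9 in Mirc11-/- cells and at place 3 of 9 in wildtype cells. Rgs1 and Rgs2 together made up 50.4% of the summed counts of the 21 Rgs genes in Mirc11-/- cells, against 61.7% in wildtype cells.

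The other 12 Rgs genes added 1.06% of that sum in Mirc11-/- and 1.15% in wildtype cells. Only Rgs8, Rgs9 and Rgs11 reached a mean of 1 normalized count and were tested, and none passed limma's adjusted p of 0.05. Rgs8, an R4 gene best known from neurons, had 60.5, 38.4 and 102 normalized counts in Mirc11-/- libraries, against 87.8, 94.3 and 138 in wildtype libraries, a log2 fold change of −0.75 (SE 0.35, limma adjusted p = 0.614). It lay at −0.41 without Mirc11-/- library 2, at −1.10 without Mirc11-/- library 3 and at −1.30 with array weights, where alone it was called. Rgs11, an R7 gene that works with the beta subunit Gnb5, had 30.3, 33.2 and 44.3 normalized counts in Mirc11-/- libraries, against 48.3, 49.6 and 48.6 in wildtype libraries. Its Mirc11-/- values all lay below the wildtype values, with a log2 fold change of −0.45 (SE 0.25, limma adjusted p = 0.638), and it shares 4836 bases with Arhgdig on the opposite strand, whose reads cannot be told apart without strand.

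Rgs9, the R7 gene of photoreceptors, had 10, 12 and 22 reads in Mirc11-/- libraries, against 8, 14 and 19 in wildtype libraries. Rgs4, Rgs5, Rgs13 and Rgs20 had 0 to 2 reads in any library, and Rgs6, Rgs7, Rgs17, Rgs21 and Rgs22 had 0 in all 6. The R4 and R12 genes thus carried nearly all of the Rgs reads beside Rgs19.

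Rgs2, Rgs1 and Rgs18 are neighbors on mouse chromosome 1 (GRCm38), all on the minus strand: Rgs2 at chr1:143999338-144004161, Rgs1 at chr1:144242296-144249242 and Rgs18 at chr1:144752683-144775435. The stretch of 0.776 Mb holds only 2 further Rgs genes, Rgs13 with at most 2 reads in a library and Rgs21 with 0 reads. Rgs16 lies farther along the same chromosome, at chr1:153740349-153745468, beside Rgs8 at chr1:153653025-153700323. The other members lie apart, Rgs3 on chromosome 4, Rgs10 on 7, Rgs12 on 5, Rgs14 on 13 and Rgs19 on 2. The 3 chromosome 1 neighbors had log2 fold changes of −0.67, −0.79 and −0.20, and Rgs16 had −0.05.

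The promoter window of Rgs2 is shown because it is the member that did not overlap and because Rgs2 is known as a gene induced by cyclic AMP. These are the 250 bases before the RefSeq start (GRCm38.p6, chr1:144004150-144004399, minus strand), 5′ to 3′ on the strand of the gene, with TGACG, the core of cyclic AMP response elements, in capitals on either strand (CGTCA is its reverse complement).
Rgs2 upstream: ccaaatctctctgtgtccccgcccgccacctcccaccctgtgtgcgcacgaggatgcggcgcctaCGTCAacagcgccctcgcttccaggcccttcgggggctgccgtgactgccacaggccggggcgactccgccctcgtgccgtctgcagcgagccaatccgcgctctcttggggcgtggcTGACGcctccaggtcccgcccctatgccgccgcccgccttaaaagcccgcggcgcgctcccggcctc
The 2 matches begin 185 and 67 bases before the start. On both strands of windows of 300 bases, TGACG stood in 20.8% of all 32851 promoter windows and in 2 of the 10 windows of the 6 members with an entry, those of Rgs2 and Rgs12. The full element TGACGTCA, which contains TGACG, stood in 1.79% of windows and in 0 of the 10, and the AP-1 motif TGACTCA in 5.20% and in 1 of the 10, that of Rgs12.

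The genes whose log2 values ran most like those of the most abundant member of each subfamily over the 6 libraries were taken among 11403 genes with a mean of at least 50 normalized counts. This is a description of 6 libraries that also share their genotype labels. For Rgs2 they were Whrn (Pearson r = 0.997), Pecam1 (0.993), the endothelial and hematopoietic adhesion molecule CD31, and Foxp1 (0.992), a forkhead transcription factor. Pecam1 had 1366, 1321 and 1711 normalized counts in Mirc11-/- libraries, against 2039, 2315 and 2275 in wildtype libraries.
For Rgs12 they were Donson (0.996), a DNA replication factor, Slc4a1 (0.994), the anion exchanger of red blood cells, and Trim10 (0.993), known from erythroid cells. Slc4a1 had 1753, 482 and 83.5 normalized counts in Mirc11-/- libraries, against 145, 66.5 and 66.9 in wildtype libraries. For Rgs19 they were Mrgbp (0.996), Hscb (0.994) and Rabl2 (0.987).

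Erythroid RNA was highest in Mirc11-/- libraries 1 and 2, the same libraries in which Rgs10 and Rgs12 were highest. Rgs1, Rgs2, Rgs18 and Rgs19 were lowest in these libraries. Of 22 erythroid markers tested, all had positive log2 fold changes, with a median of 0.87, and 0 passed limma's adjusted p of 0.05 against 8 at an unadjusted p under 0.05 (8.24% of all genes were). Their summed normalized counts were 63532, 57895 and 25412 in Mirc11-/- libraries, against 34534, 25425 and 23835 in wildtype libraries, and none of the 22 markers was at 0 in all libraries. The lineage antibodies of the sort included an erythroid one. The part of erythroid cells in the values of these Rgs genes was not tested.

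Immediate-early genes, which cells switch on within minutes of a stimulus, were listed without Rgs members. Of 47 tested, 46 had negative log2 fold changes with a median of −0.76. In 29 of them every Mirc11-/- library lay below every wildtype library, against 6.53% of all genes tested, 33 had an unadjusted p under 0.05, against 8.24% of all genes, and 0 passed limma's adjusted p of 0.05. Their summed normalized counts were 108713, 167179 and 171487 in Mirc11-/- libraries, against 235644, 274752 and 352980 in wildtype libraries, without overlap. Fos averaged 16336 ± 3990 in Mirc11-/- and 35224 ± 4550 in wildtype cells (SD, n = 3 each). Mirc11-/- library 1 was the lowest of all 6 for this sum and for Rgs1, and wildtype library 1 the lowest wildtype library for the sum, Rgs1 and Rgs2. Other ranks differed: Rgs2 was as low in Mirc11-/- library 2 (3095) as in library 1 (3110). Rgs1 was highest in wildtype library 2, and the sum in wildtype library 3. The list was drawn up with earlier results of these data known, and its part in the values of Rgs1 and Rgs2 was not tested.

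Of 15 megakaryocyte and platelet markers tested, 14 had positive log2 fold changes, with a median of 0.33. Their sums were 5080 to 6686 normalized counts in Mirc11-/- and 4133 to 5542 in wildtype libraries. Rgs18 was at −0.20 with overlapping groups, and the part of megakaryocytes in its values was not tested. Of 12 LSK markers, 10 had negative log2 fold changes with a median of −0.21, and their sums were 39837 to 56433 in Mirc11-/- and 53018 to 59770 in wildtype libraries. Of 9 mast cell and basophil markers 7 were positive, with a median of 0.45. Their sums were 1850 to 4117 in Mirc11-/- and 1977 to 2136 in wildtype libraries, and Tpsb2 and Tpsab1 were at 0 in all libraries. Of 20 neutrophil and monocyte markers 10 were positive and 10 negative, with sums of 160322 to 267433 in Mirc11-/- and 187662 to 229373 in wildtype libraries. Of 15 B, T and NK cell markers 9 were positive, with a median of 0.48, while their sums were 2325 to 3725 in Mirc11-/- and 3787 to 4074 in wildtype libraries. The most abundant of them, Nkg7, had 2833, 1164 and 1387 normalized counts in Mirc11-/- libraries, against 2406, 2686 and 2576 in wildtype libraries. In none of these 5 lists did a gene pass limma's adjusted p of 0.05.

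**Figure D3:**
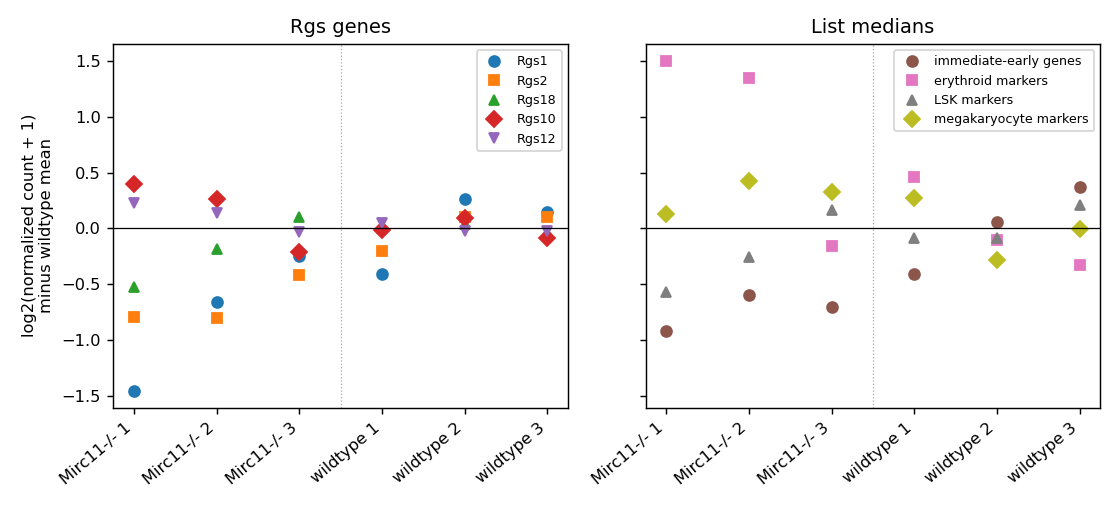
Log2(normalized count + 1) minus the wildtype mean (vertical axis) in each library, for 5 Rgs genes at left and for the medians of 4 gene lists at right, with Mirc11-/- libraries left of wildtype libraries in each panel. Erythroid markers stand highest in Mirc11-/- libraries 1 and 2, at 1.35 in the second of these, and at −0.16 in Mirc11-/- library 3, and immediate-early genes at −0.92 to −0.60 in the 3 Mirc11-/- libraries.

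The proteins that work with the Rgs genes were listed by role, and with the 12 other Rgs genes these made 168 genes in 13 lists, of which 143 were tested. None passed limma's adjusted p of 0.05 in either direction, while 9 with positive and 14 with negative log2 fold changes had an unadjusted p under 0.05, against 8.24% of all genes in either direction. The log2 fold changes were positive in 69 and negative in 74, with a median of −0.02. In 15 genes every Mirc11-/- library lay below every wildtype library, against 6.53% of all genes, and in 11 above, against 6.42%. Without Mirc11-/- library 3, limma called 7 of the listed genes higher, against 1.94% of all genes, and 7 lower, against 1.46%.

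The abundant alpha subunits, the direct substrates of RGS proteins, had log2 fold changes close to 0. Gnai2, the main Gi alpha subunit of blood cells, had 10913, 9534 and 10134 normalized counts in Mirc11-/- libraries, against 9926, 10160 and 10408 in wildtype libraries (log2 fold change 0.00, SE 0.08). Of the Gq family, on which Rgs2 acts, Gnaq averaged 1054 ± 119 in Mirc11-/- and 1119 ± 66.7 in wildtype cells, a log2 fold change of −0.09. Gna11 and the blood cell subunit Gna15 lay at 0.05 and 0.04. The scarcer Gna14 lay at 0.03 with a standard error of 0.36. It had 89.8, 99.7 and 38.2 normalized counts in Mirc11-/- libraries, against 60.2, 83.4 and 64.9 in wildtype libraries. The Gs and G12 subunits Gnas, Gna12 and Gna13 lay at 0.01 to 0.04 and Gnal at −0.13. The scarce Gi family members Gnat2, Gnai1, Gnao1 and Gnaz had adjusted p of 0.792 to 0.929 in limma.

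Of 14 beta and gamma subunits tested, Gng12 had the smallest p, with 1687 ± 140 normalized counts in Mirc11-/- and 2089 ± 196 in wildtype cells, a log2 fold change of −0.31 (SE 0.10, limma adjusted p = 0.485). Gng3 and Gngt2 lay at −0.33 and −0.36 and Gng7 at 0.52, and none passed the test. The partners of R7 proteins, Gnb5, Rgs7bp and Rgs9bp, lay at −0.21, −0.25 and 0.08 with overlapping groups. Among 14 other genes with RGS-type domains, Arhgef12, a guanine nucleotide exchange factor that responds to G12 and G13, averaged 644 ± 81.1 in Mirc11-/- and 439 ± 87.5 in wildtype cells. Its log2 fold change was 0.56 (SE 0.17, limma adjusted p = 0.459) with no overlap. Arhgef1 and Arhgef11 of the same kind lay at −0.14 and −0.17, and the receptor kinase gene Adrbk1 at −0.14.

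Arrestins end receptor signals by a second route. Arrb1 had 3790, 3697 and 3121 normalized counts in Mirc11-/- libraries, against 2913, 2834 and 2904 in wildtype libraries, with no overlap (log2 fold change 0.29, SE 0.09, limma adjusted p = 0.476), and Arrb2 lay at 0.02. Among modulators of inactive Gi alpha subunits and related proteins, Gpsm1 lay at −0.36, Gpsm2 at 0.44, Ccdc88a at 0.21 and Rap1gap2 at 0.38, all with overlap.

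Of the receptors, Gpr56 was the most clearly apart. This adhesion receptor couples to G12 and G13 and is abundant in stem cells. It had 12162, 11252 and 15354 normalized counts in Mirc11-/- libraries, against 20722, 19467 and 25564 in wildtype libraries, a log2 fold change of −0.77 (SE 0.14) with no overlap. It did not pass limma's test (adjusted p = 0.322), and was called lower with the replicate block, in DESeq2 and without Mirc11-/- library 3, as Rgs2 was. Of its list of 17 Gq- or G12-coupled receptors, Ptger1 and P2ry2, receptors for prostaglandin E2 and nucleotides, lay at −0.40 and −0.47 without overlap, and the angiotensin receptor Agtr1a at 1.49 with 61.7 ± 21.4 normalized counts in Mirc11-/- and 22.2 ± 10.7 in wildtype cells.

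Of 30 Gi-coupled receptors, 14 had positive and 16 negative log2 fold changes. Cxcr4, the receptor that holds progenitors in the bone marrow, had 2994, 2270 and 1741 normalized counts in Mirc11-/- libraries, against 1727, 1835 and 2159 in wildtype libraries, and the groups overlapped (log2 fold change 0.26, SE 0.18, limma adjusted p = 0.694). P2ry14, a nucleotide sugar receptor of primitive progenitors, had 185, 288 and 474 in Mirc11-/- libraries, against 503, 509 and 568 in wildtype libraries, a log2 fold change of −0.84 (SE 0.28, limma adjusted p = 0.502). Gpr18 lay at −1.18, and the inflammatory receptors Ccr1 and Fpr2 at 2.12 and 2.35. Ccr1 had 46.3, 260 and 61.4 normalized counts in Mirc11-/- libraries, against 16.8, 22.8 and 21.3 in wildtype libraries, and DESeq2 called it higher. Fpr2 had 7 to 9 reads in Mirc11-/- and 0 to 2 in wildtype libraries.

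Of 10 Gs-coupled receptors, 8 had negative log2 fold changes. The prostaglandin E2 receptors Ptger4 and Ptger2 lay at −0.37 and −0.60, and Mc1r, at 6 to 13 reads in Mirc11-/- and 2 to 5 in wildtype libraries, at 1.48. Of 28 cyclic AMP and phospholipase C effectors, the phosphodiesterases Pde3b and Pde4b, which degrade cyclic AMP, lay at −0.60 and −0.72 without overlap. For Pde4b the groups nearly touched, at 1245 normalized counts in Mirc11-/- library 3 against 1252 in wildtype library 1. Pde3b had 443, 327 and 459 normalized counts in Mirc11-/- libraries, against 672, 556 and 626 in wildtype libraries (limma adjusted p = 0.419), and DESeq2 called it lower. Rapgef3 lay at −0.33 and Plcb1 at 1.16, the second with 144 reads in Mirc11-/- library 1 and 24 to 74 in the others.

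**Figure D4:**
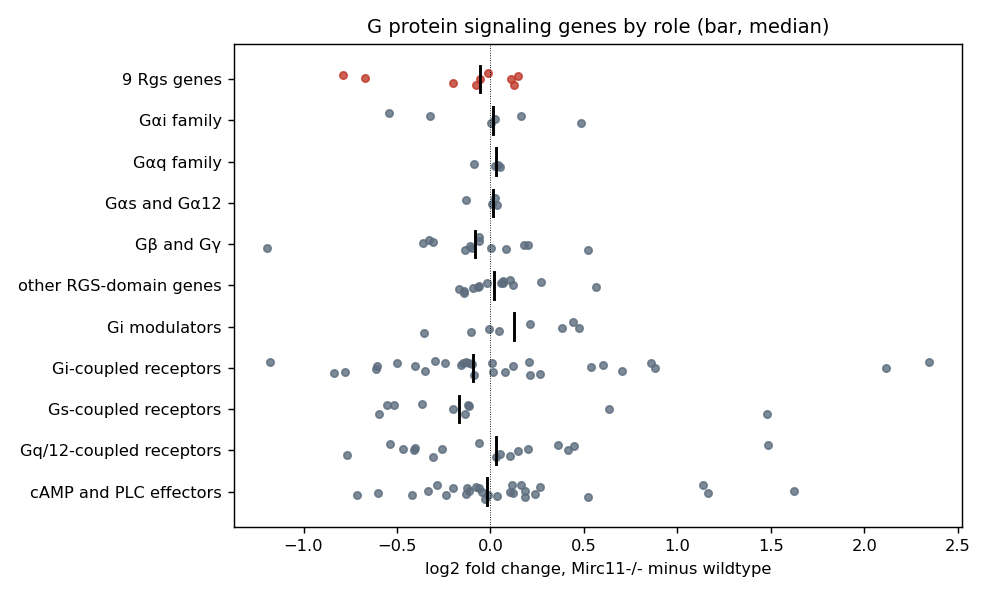
Log2 fold change, Mirc11-/- minus wildtype (horizontal axis), of the 9 Rgs genes in red and of G protein signaling genes by role in gray, 1 point per gene, with a black bar at each median. Lists with under 4 tested genes are not drawn, and the medians of the lists drawn lie between −0.17 for Gs-coupled receptors and 0.13 for Gi modulators, and that of the 9 Rgs genes is −0.05.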

How the data were processed

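RNA-seq of sorted LSK cells was available for 3 Mirc11-/- and 3 wildtype libraries, grouped by the labels. Tools listed in the submitters' processing notes are STAR and Cufflinks, with mm10, while the supplementary methods name hg19, Cufflinks FPKM and DE-seq at default parameters. For both, versions and the gene models were not stated in the sources used here, and the symbols are those of mouse genes. The authors deposited 1 table whose name says FPKM. In it the authors gave a signal per gene, a read count scaled by 1 factor for each library and not by gene length: of the values above 0, 100% came out as whole reads within 0.001. The library kit is not stated to keep strand. The planned test for normalized values was kept: limma on log2(value + 1) with a trend, two-sided, for 15662 genes with a mean of at least 1, with Benjamini-Hochberg adjustment over all of them and a threshold of 0.05. The 2 symbols that stood on 2 entries each were summed.

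R 4.3.3, limma 3.58.1, edgeR 4.0.16 and DESeq2 1.42.0 were used, and the fits were also run on simulated counts with known changes. The simulated noise was drawn separately for each gene, so it cannot show how the fits handle shifts shared by many genes of a library. The members and lists were chosen with earlier results of these data known. Named were all Rgs genes, the 4 genes of each role list with the smallest p, the 3 most abundant of each marker list, the 3 genes most like the leading member of each subfamily, and the MIRC11 genes. A gene picked by this rule is not reported here. Of the rest, markers were named only where a result turned on them, and Kit, Ly6a, Itgam, Gnai2 and Cxcr4 were added after their values were seen. Counts of reads limit precision through counting error and the spread of 3 pools, and p-values measure only that spread. The fit was repeated with pseudocounts of 0.5 and 5, with a filter of 10 or none, after quantile normalization or median-ratio scaling, with array weights, without the trend, with the replicate number as a block, without each library in turn, and by edgeR and DESeq2 on recovered reads. RefSeq promoter windows were held for 6 of the 9 genes, not for Rgs1, Rgs14 and Rgs18. Antisense genes outside the table overlap Rgs3, Rgs6, Rgs8, Rgs12, Rgs16 and Rgs20. Rgs20 also shares 268 bases with Atp6v1h on the opposite strand.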

Additional observations from a re-analysis of the deposited data

How the results depend on the processing

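Of 15662 genes, limma called 1 higher and 4 lower in Mirc11-/- cells. It called 2 and 2 without a trend, 38 and 87 in DESeq2, and 2868 and 2809 with array weights, whose estimation did not converge. Leaving out 1 library gave 1 to 303 higher and 0 to 228 lower: 303 and 228 without Mirc11-/- library 3, 5 and 9 without library 1, 1 and 1 without library 2, and 1 and 0 without any 1 wildtype library. Of the 9 Rgs genes, 1 was called lower in DESeq2, 4 lower and 3 higher with array weights, and 0 to 2 lower when 1 library was left out. Of the 143 listed pathway genes, 1 was called higher and 2 lower in DESeq2, 23 and 33 with array weights, and 0 to 7 each way when 1 library was left out. Why these settings differ was not tested. The log2 fold changes of Rgs1, Rgs2, Rgs10, Rgs12, Rgs14, Rgs18 and Rgs19 kept their sign in all 17 settings.

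Same-numbered libraries correlated at 0.07, −0.06 and 0.10 in their deviations from the group means, and not every library correlated best with its own number, so the numbers were not taken as pairs. With the replicate number as a block, 3 genes were called higher and 27 lower, among them 1 of the 9 Rgs genes (Rgs2) and 1 of the listed genes (Gpr56). Depth limits Rgs16 and the genes under 10 reads, and 3 pools per genotype limit the rest.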
